A study of Mus musculus with 9 samples.

Results

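Interferon and antiviral genes were examined in duodenal organoids that had all received an adenovirus. The group comprised 36 genes out of the 46517 in the tables, chosen by symbol as interferon-stimulated genes, pattern sensors, transcription factors and antigen presentation genes. All 36 symbols were present in the tables of all 9 samples. Organoids were grown from duodenal crypts of wild-type C57BL/6J mice in matrigel with L-WRN conditioned medium and 5% oxygen, conditions that favour stem cells, and the age of the mice was not given in the sources used here. Samples of 3 cultures each, which the study calls biological replicates, were labelled Adeno-GFP, Adeno-hHIF2 and Adeno-HhHIF1 and are called Ad-GFP, Ad-hHIF2 and Ad-hHIF1 below. Both HIF viruses carried human cDNA with proline-to-alanine substitutions that keep the protein from being degraded. Ad-GFP is a CMV-promoter vector for green fluorescent protein. Each virus was given at 50 particles per cell, to organoids broken up into single cells, and RNA was collected about 72 hours later. Organoids without virus were not analysed here, so the levels below cannot be set against virus-free tissue, and every comparison is between a HIF virus and another virus.

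Cells detect viral nucleic acid through sensors such as RIG-I (encoded by Ddx58) and MDA5 (encoded by Ifih1), which lead to the secretion of type I and type III interferons. The interferons act through receptors, the kinases JAK1 and TYK2 and a complex with STAT2 and IRF9 that binds the interferon-stimulated response element (ISRE), while interferon gamma also acts at the gamma-activated site (GAS). The resulting gene products degrade RNA, block translation, hold back virus particles and raise peptide presentation, and in the intestinal epithelium the type III branch is known to be prominent.

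The upstream sequences of 5 members are shown because they carry the elements that define such genes. Isg15 and Ifit1 are classical interferon-stimulated genes with a mean below 1 CPM here, and Bst2 and B2m carry the same element and were readily detected. Irf1 carries a GAS match. It also holds the core letters of the hypoxia response element, which HIFs bind and which 43.8% of all RefSeq windows hold. Each run holds the 250 bases before the RefSeq transcription start on GRCm38.p6, 5′ to 3′ on the gene's strand, with matches to ISRE (GAAA, any 2 bases, GAAA) or GAS (TTCNNNGAA) on either strand in capitals.
Isg15, chr4:156200819-156201068, minus strand: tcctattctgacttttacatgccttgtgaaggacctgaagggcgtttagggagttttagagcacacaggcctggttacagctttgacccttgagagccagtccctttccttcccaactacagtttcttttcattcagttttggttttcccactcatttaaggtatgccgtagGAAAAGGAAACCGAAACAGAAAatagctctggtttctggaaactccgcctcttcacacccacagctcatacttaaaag
Ifit1, chr19:34640639-34640888, plus strand: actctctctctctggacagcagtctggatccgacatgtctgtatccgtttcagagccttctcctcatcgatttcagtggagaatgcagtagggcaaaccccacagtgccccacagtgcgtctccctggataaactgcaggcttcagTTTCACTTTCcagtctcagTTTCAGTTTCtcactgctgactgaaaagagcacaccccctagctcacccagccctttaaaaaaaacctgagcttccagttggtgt
Bst2, chr8:71537473-71537722, minus strand: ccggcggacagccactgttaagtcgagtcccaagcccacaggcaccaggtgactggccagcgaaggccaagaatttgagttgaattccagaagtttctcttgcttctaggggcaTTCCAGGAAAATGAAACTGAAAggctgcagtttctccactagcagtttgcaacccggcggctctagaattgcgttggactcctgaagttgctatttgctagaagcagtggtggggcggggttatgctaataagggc
B2m, chr2:122147437-122147686, plus strand: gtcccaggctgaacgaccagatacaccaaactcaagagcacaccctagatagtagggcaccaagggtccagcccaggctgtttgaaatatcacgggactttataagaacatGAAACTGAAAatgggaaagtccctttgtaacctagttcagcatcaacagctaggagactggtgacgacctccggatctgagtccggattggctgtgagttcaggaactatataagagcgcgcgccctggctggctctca
Irf1, chr11:53769764-53770013, plus strand: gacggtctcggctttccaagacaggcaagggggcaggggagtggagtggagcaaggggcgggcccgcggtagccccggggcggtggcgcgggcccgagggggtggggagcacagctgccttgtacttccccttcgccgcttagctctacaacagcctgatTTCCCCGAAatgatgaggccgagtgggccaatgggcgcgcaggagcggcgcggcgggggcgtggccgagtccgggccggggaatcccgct

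The Isg15 run holds 3 ISRE matches that overlap each other, from 78 to 57 bases before the start. Ifit1 has 2 separate matches, at 104 to 95 and 85 to 76 bases before the start. In Bst2 a GAS match at 136 to 128 bases overlaps the first of 2 overlapping ISRE matches, at 130 to 115 bases, and B2m has 1 ISRE match at 139 to 130 bases. The GAS match of Irf1 lies 90 to 82 bases before its start, and its hypoxia response element match (GCGTG, left in lower case) lies 32 to 28 bases before it. RefSeq windows that reach from 250 bases before to 50 bases after the start were available for 27 of the 36 genes, as 33 windows, because some genes have more than 1 start. The ISRE letters were found in 14 of the 33 windows (42.4%), belonging to 14 genes, against 3.44% of all 32851 windows in the table. GAS letters were found in 8 of the 33 windows (24.2%), against 8.3% of all windows. The core hypoxia response element (ACGTG or GCGTG, either strand) was in 15 of the 33 windows (45.5%), against 43.8% of all windows. Ddx58 has 1 ISRE match, which begins inside the transcribed part of its window. Of the 13 genes with a window and a mean below 1 CPM (counts scaled to library size), 9 held the ISRE letters, and of the 14 genes at or above that level 5 did. A match describes letters only and does not show that a factor was bound.

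Libraries held 21722618 to 51119041 expected counts, the read numbers that RSEM assigns to genes. Levels are given in CPM after TMM scaling, which also serve to class genes by how well they were counted, and levels of different genes are ranked only in TPM, which are abundances divided by transcript length. The mouse gene Epas1, which is the orthologue of the HIF2 transgene, was at 604 to 757 CPM in Ad-hHIF2 and at 1.47 to 2.2 CPM in Ad-GFP, and Hif1a was at 299 to 319 CPM in Ad-hHIF1 and at 197 to 251 CPM in Ad-GFP. The epithelial keratin Krt8 (1020 to 1360 CPM) and the cadherin Cdh1 (204 to 352 CPM) were abundant, but among the intestinal markers Cdx1 had 0 counts in all 9 samples, Epcam did not exceed 3.80 CPM, Vil1 did not exceed 4.93 CPM and Cdx2 did not exceed 8.99 CPM. The 12 leukocyte markers summed to 4.26 to 5.22 CPM in Ad-GFP, 4.29 to 5.79 CPM in Ad-hHIF2 and 1.64 to 5.95 CPM in Ad-hHIF1, with Gzma at 0 in all samples, and the defining leukocyte gene Ptprc was at 0.492 to 1.15, 0 to 0.0686 and 0.128 to 0.525 CPM. The sums joined opposite differences, since Csf1r was at 2.79 to 4.27 CPM in Ad-hHIF2 against 0.3 to 1.91 in Ad-GFP and 0.349 to 0.437 in Ad-hHIF1. Without Csf1r, left out after its values were seen, the other 11 summed to 2.96 to 4.69 CPM in Ad-GFP, 1.22 to 1.71 in Ad-hHIF2 and 1.25 to 5.51 in Ad-hHIF1, the highest in replicate 3. The 8 fibroblast markers summed to 12.1 to 18.4 CPM in Ad-GFP, 9.92 to 12.8 in Ad-hHIF2 and 9.97 to 19.5 in Ad-hHIF1. Of these, 3 (Col1a2, Lum and Thy1) were lower in every Ad-hHIF2 than in every Ad-GFP culture, as were 22.4% of all genes tested. The 4 endothelial markers summed to 1.6 to 3.11, 1.02 to 1.71 and 1.84 to 2.71 CPM. Epcam (1.42 to 1.9 CPM) was lower and Cdh1 (293 to 352 CPM) was higher in the Ad-hHIF2 cultures than in all others, and the part of these markers in the results was not tested. Ad-hHIF1 replicate 3 stood apart, with 16% of its counts in the satellite-like genes Gm10800 and Gm26870 against 0.433% to 4.28% in the other libraries. In Ad-hHIF2 replicate 1 the TMM factor was 1.31, the highest of the 9, against 0.907 to 1.03 in the others. The 36 genes summed to 80.8 TPM there against 28.4 to 44.5 TPM, but TPM were not scaled by TMM. In TMM-scaled CPM they summed to 356 there against 278 to 341 in the others, so the TPM sum is not a measure of this group alone.

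The secreted interferons themselves were barely detectable. Of 12 interferon genes looked for, 7 had 0 counts in all 9 samples, namely Ifna1, Ifna4, Ifna5, Ifnb1, Ifng, Ifnl2 and Ifnl3. A count of 0 allowed up to 3 counts, which corresponds to 0.0588 to 0.15 CPM depending on the library and covers counting error only. Ifnz was the most counted of the 12, with 164 counts over all samples, and Ifna2, Ifnab, Ifne and Ifnk had 7, 2, 13 and 13.

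Transcripts for the receptors of all 3 interferon classes were readily detected. The type I receptor chain Ifnar1 was at 44.8, 40.9 and 37.1 CPM in Ad-GFP, 55.0, 50.8 and 53.1 in Ad-hHIF2 and 44.0, 56.4 and 48.2 in Ad-hHIF1. Its partner Ifnar2 was at 23.7, 21.9 and 21.9 CPM in Ad-GFP, 28.5, 22.6 and 25.1 in Ad-hHIF2 and 26.1, 24.3 and 25.6 in Ad-hHIF1. For Ifnar1 every Ad-hHIF2 culture was above every Ad-GFP culture, while the Ad-hHIF2 and Ad-GFP values of Ifnar2 overlapped. The type III receptor chain Ifnlr1 was at 8.27, 8.72 and 9.39 CPM in Ad-GFP, 10.4, 8.94 and 8.95 in Ad-hHIF2 and 8.05, 7.17 and 8.33 in Ad-hHIF1. Its partner Il10rb was at 11.9, 11.8 and 12.7 CPM in Ad-GFP, 15.0, 15.7 and 14.8 in Ad-hHIF2 and 13.2, 11.7 and 12 in Ad-hHIF1, with the Ad-hHIF2 cultures above all others.

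**Figure D1:**
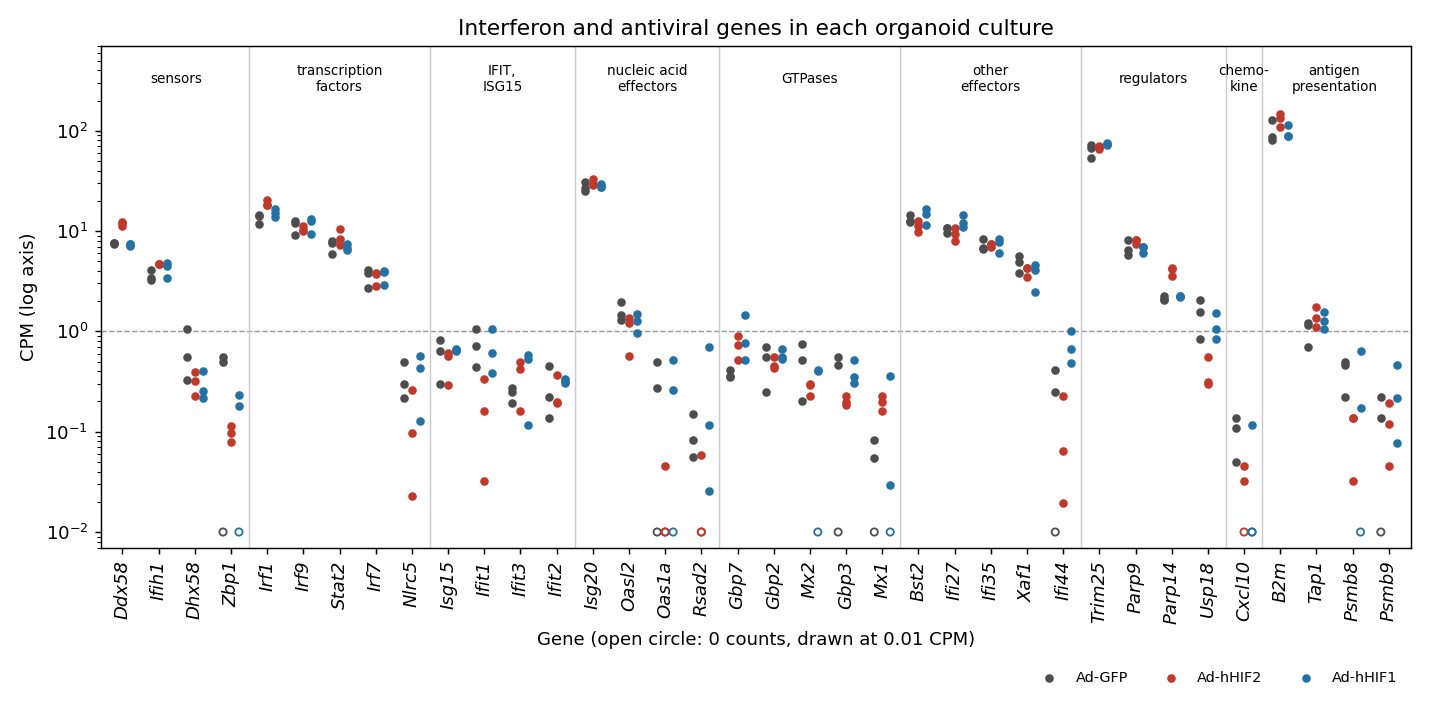
CPM on a log axis for each of the 36 genes, ordered by role, with 1 point per culture (grey Ad-GFP, red Ad-hHIF2, blue Ad-hHIF1), open circles for 0 counts drawn at 0.01 CPM and a dashed line at 1 CPM. The IFIT genes, Isg15, most GTPases, Cxcl10 and the immunoproteasome genes lie below or around the line in all 3 groups, while B2m, Trim25 and Isg20 lie well above it.

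Levels within the group ranged from a few counts per library to over 100 CPM. Of the 36 genes, 18 had a mean below 1 CPM over the 9 samples, 11 lay between 1 and 10 CPM and 7 exceeded 10 CPM (Isg20, Irf1, Irf9, Bst2, Ifi27, B2m and Trim25). The share below 1 CPM was 50% of the group and 48.1% of the 21547 protein-coding genes in the tables, so that the group was not set apart by it. Between 1 and 10 CPM the shares were 30.6% and 19.9%, and above 10 CPM they were 19.4% and 32%. In 12 genes some sample had at most 3 counts, and in 10 of them some sample had 0. The median of the 36 means was 0.834 CPM. Of the 36 genes, 30 passed the filter on low counts in at least 1 comparison, whereas Cxcl10, Mx1, Oas1a, Psmb9, Rsad2 and Zbp1 passed in none.

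Per transcript length, B2m, the light chain of MHC class I, ranked first of the 36 genes, with a mean of 22.6 TPM over the 9 samples. Isg20, an exonuclease that degrades single-stranded RNA, followed at 5.34 TPM, and Ifi27, a small mitochondrial protein gene, came after it at 3.10 TPM. Bst2 (tetherin), which anchors budding particles to the cell surface, was at 2.92 TPM, which is close to the level of Ifi27. Next came Trim25, the ubiquitin ligase that acts on RIG-I, at 1.87 TPM and Irf1 at 1.30 TPM. In 20 of the 36 genes the mean was below 0.1 TPM. A few short RNA genes (Rn7s1, Rn7s2, Rn7sk, Rpph1 and Rmrp) took 20.6% to 24.6% of the TPM, which lowers the TPM of every other gene.

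Isg15 and 6 genes with fewer counts had a mean below 1 CPM in every group. Isg15, the ubiquitin-like modifier, was at 0.819, 0.637 and 0.3 CPM in Ad-GFP replicates 1, 3 and 4, at 0.571, 0.608 and 0.291 CPM in Ad-hHIF2, and at 0.669, 0.656 and 0.639 CPM in Ad-hHIF1. These levels rest on 6 to 31 counts per library, and the 3 groups overlapped except that every Ad-hHIF2 culture was below every Ad-hHIF1 culture. Cxcl10, the chemokine that recruits T cells, had 4, 5 and 1 counts in Ad-GFP, 2, 0 and 1 in Ad-hHIF2 and 4, 0 and 0 in Ad-hHIF1, which is 17 counts in all. Rsad2 (viperin), which makes a chain-terminating nucleotide, had 32 counts in all, and 16 of these were in Ad-hHIF1 replicate 3. Mx1, a dynamin-like GTPase, had 45 counts in all, Oas1a, which makes the activator of RNase L, had 54, Zbp1, a sensor of Z-form nucleic acid, had 65, and Psmb9, a subunit of the immunoproteasome, had 51. Apart from Isg15, none of these genes had enough counts to be compared between groups.

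The comparison of Ad-hHIF2 with Ad-GFP asked whether nondegradable HIF2 changed the expression of these genes at an equal nominal dose of virus. The amount of virus taken up was not measured here. RIG-I (Ddx58), PARP14 and IRF1 transcripts rose with Ad-hHIF2 by less than 2-fold, and Usp18 fell by more than 2-fold. The remaining members that could be tested did not pass, and a shift of the group as a whole was not tested. Summed over the 36 genes, levels were 278, 284 and 313 CPM in Ad-GFP and 356, 319 and 341 CPM in Ad-hHIF2. B2m alone made up 28.8% to 41.7% of these sums. Of 24 members tested, 3 were higher at an adjusted p below 0.05, and 15.9% of the 14987 genes tested were higher by this rule. A single member, Usp18, was lower, and 13.6% of the genes tested were. When a change of at least 2-fold was also required, 0 members were higher and 1 was lower, and 2.9% and 3.83% of the genes tested were. At an unadjusted p below 0.05, 5 members were higher and 2 were lower by the edgeR quasi-likelihood test, against 21.3% and 19.9% of all genes tested. With limma on TPM, 1010 genes passed the adjusted p on log2(TPM + 1) and 1109 on log2(TPM + 0.1), against 4416 by edgeR. None of the 4 members passed there (limma adjusted p from 0.0879 for Parp14 to 0.442 for Ddx58). Adding 1 or 0.1 compresses the differences of genes with low TPM, such as Parp14 and Usp18. The median log2 fold change of the tested members was 0 and that of all genes tested was -0.01, with 12 members above 0 and 12 below. Fewer cells that express a gene and less RNA per cell cannot be told apart in these bulk samples. Cxadr, the adenovirus entry receptor, was at 192 to 220 CPM in Ad-GFP and 367 to 408 CPM in Ad-hHIF2 (log2 fold change 0.91 ± 0.09 SE, edgeR adjusted p = 0.000143), and the 4 entry genes (Cxadr, Itgav, Itgb3 and Itgb5) summed to 443 to 509 CPM in Ad-GFP, 717 to 780 in Ad-hHIF2 and 512 to 530 in Ad-hHIF1. The part of this difference in the results was not tested.

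Ddx58 (chr4:40203773-40239828, minus strand), the cytoplasmic sensor of viral RNA with a triphosphate end, was at 7.67, 7.53 and 7.44 CPM in Ad-GFP replicates 1, 3 and 4. It was at 11.2, 11.9 and 12.3 CPM in Ad-hHIF2 and at 7.5, 7.08 and 7.41 CPM in Ad-hHIF1. All Ad-hHIF2 cultures were above all other cultures, whose levels lay close together. The log2 fold change of Ad-hHIF2 over Ad-GFP was 0.65 ± 0.10 (SE), or 1.57-fold (edgeR quasi-likelihood test, adjusted p = 0.00153). With each sample left out in turn it ran from 0.63 to 0.70. Whole counts were found for Ddx58 in 4 of the 9 samples, so that part of its reads was shared with other genes or transcripts by the authors' counting. Among the other sensors, Ifih1 was at 3.25 to 4.13 CPM in Ad-GFP and at 4.67 to 4.71 CPM in Ad-hHIF2, without overlap, and its log2 fold change of 0.38 ± 0.16 did not pass the test (edgeR adjusted p = 0.108). Dhx58 (LGP2), a related helicase that tunes the other sensors, had a log2 fold change of -0.96 ± 0.55 on 7 to 21 counts per library (edgeR adjusted p = 0.219).

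Parp14 (chr16:35832874-35871544, minus strand), an interferon-induced ADP-ribosyltransferase, was at 2.10, 2.24 and 2.05 CPM in Ad-GFP. The Ad-hHIF2 cultures had 4.32, 4.18 and 3.59 CPM, and the Ad-hHIF1 cultures had 2.18, 2.27 and 2.25 CPM. The Ad-hHIF2 values lay above all others without overlap. Against Ad-GFP the log2 fold change was 0.92 ± 0.19 (SE), or 1.89-fold (edgeR quasi-likelihood test, adjusted p = 0.00663), and without Ad-hHIF2 replicate 4 it reached the 2-fold threshold. Parp9, which lies nearby on chromosome 16 and is also an interferon-induced gene, was at 5.81 to 8.19 CPM in Ad-GFP and 7.51 to 8.18 CPM in Ad-hHIF2. The Parp9 groups overlapped, and the log2 fold change of 0.23 ± 0.15 did not pass (edgeR adjusted p = 0.267), whereas without Ad-GFP replicate 4 it was 0.38 and passed (adjusted p = 0.0461). The counts of Parp9 were not whole in any sample.

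Irf1 (chr11:53770014-53778374, plus strand), a transcription factor downstream of interferon gamma that also drives genes directly, was at 14, 14.5 and 11.8 CPM in Ad-GFP. It was at 18.1, 20.5 and 18.1 CPM in Ad-hHIF2 and at 13.7, 16.4 and 15.2 CPM in Ad-hHIF1. The Ad-hHIF2 cultures were highest, and the Ad-GFP and Ad-hHIF1 cultures overlapped. The log2 fold change of Ad-hHIF2 over Ad-GFP was 0.49 ± 0.10 (SE), or 1.41-fold (edgeR quasi-likelihood test, adjusted p = 0.00788), and it ran from 0.42 to 0.55 with each sample left out. The other transcription factors overlapped between these groups. Irf9 and Stat2, both parts of the complex that binds ISRE, had log2 fold changes of -0.08 ± 0.13 and 0.27 ± 0.16, and Irf7, which amplifies type I interferon, had -0.01 ± 0.22. Nlrc5, the transactivator of MHC class I genes, had 1 to 8 counts in each Ad-hHIF2 library and was not tested here.

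Usp18 (chr6:121245906-121270917, plus strand), which removes ISG15 from proteins and damps signalling at the type I receptor, was at 0.847, 1.55 and 2.05 CPM in Ad-GFP. It was at 0.297, 0.314 and 0.549 CPM in Ad-hHIF2 and at 0.843, 1.05 and 1.51 CPM in Ad-hHIF1. The Ad-hHIF2 cultures lay below all others, and the values rest on 13 to 17 counts there against 24 to 59 in the other libraries. The log2 fold change was -1.93 ± 0.47 (SE), a 3.82-fold lower level (edgeR quasi-likelihood test, adjusted p = 0.0148). The call was lost without Ad-GFP replicate 3 (adjusted p = 0.0519), without Ad-hHIF2 replicate 1 (0.0613) and without Ad-hHIF2 replicate 3 (0.0634), while the log2 fold change ran from -2.24 to -1.64 with each sample left out. Several leukocyte markers were also lower in Ad-hHIF2. Of the 12, all Ad-hHIF2 cultures were below all Ad-GFP cultures for 5 (Ptprc, Ms4a1, Itgam, C1qa and Siglech) and above for 1 (Csf1r). Among all genes tested 22.4% were separated downwards and 23.4% upwards. Some of these markers rest on few counts, such as Itgam (7 to 10 in Ad-GFP, 6 to 9 in Ad-hHIF2) and Siglech (3 to 10 and 0 to 3). The part of these markers in the lower levels of Usp18 and Ifit1 was not tested.

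**Figure D2:**
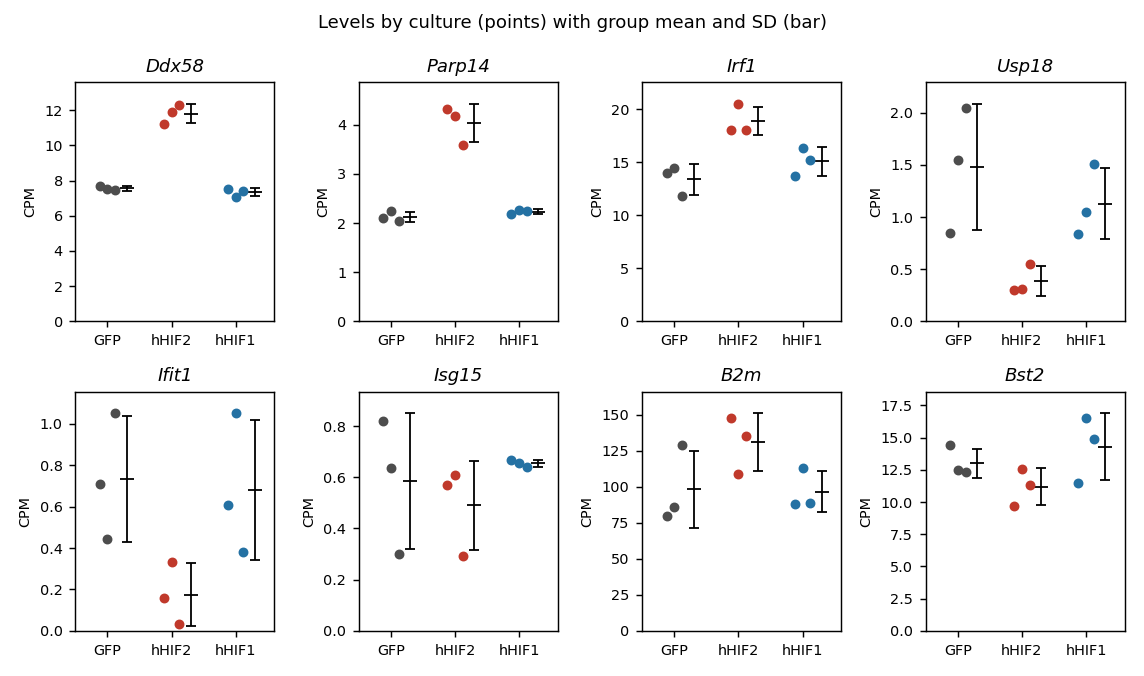
CPM of 8 members in each culture (points) with the group mean and SD beside them (3 cultures a group, linear axes from 0). Ddx58, Parp14 and Irf1 are highest and Usp18 is lowest in all 3 Ad-hHIF2 cultures, and the Isg15, B2m and Bst2 groups overlap between Ad-hHIF2 and Ad-GFP.

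The effectors did not pass the test in this comparison. Ifit1, which binds viral RNA that lacks a host cap, had 26, 16 and 21 counts in Ad-GFP and 7, 17 and 1 in Ad-hHIF2. In CPM the Ad-hHIF2 values (0.160, 0.333 and 0.0323) lay below the Ad-GFP values (0.710, 0.443 and 1.05), and the log2 fold change was -1.93 ± 0.68 (edgeR adjusted p = 0.0638). With no count filter (adjusted p = 0.0404) and with DESeq2 (0.0272) it passed. With each sample left out it ran from -2.78 to -1.51 and did not pass (edgeR adjusted p from 0.0534 to 0.182). Isg15 had a log2 fold change of -0.27 ± 0.50 (edgeR adjusted p = 0.721), and Ifit2 and Ifit3 had too few counts to be tested.

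Isg20 was at 25.1, 26.7 and 31.0 CPM in Ad-GFP, 29.3, 29.1 and 33.3 in Ad-hHIF2 and 27.7, 27.7 and 29.3 in Ad-hHIF1, with overlapping groups and a log2 fold change of 0.16 ± 0.10 for Ad-hHIF2 over Ad-GFP (edgeR adjusted p = 0.272). Ifi27 was at 9.48, 10.8 and 10.8 CPM in Ad-GFP, 7.88, 9.35 and 10.7 in Ad-hHIF2 and 11, 14.5 and 11.9 in Ad-hHIF1. Bst2 was at 14.4, 12.5 and 12.3 CPM in Ad-GFP, 9.71, 12.6 and 11.3 in Ad-hHIF2 and 11.5, 16.5 and 14.9 in Ad-hHIF1. In CPM both genes were lower on average in Ad-hHIF2 than in Ad-GFP, but the groups overlapped and neither passed (edgeR log2 fold changes -0.15 ± 0.13 and -0.21 ± 0.13, adjusted p = 0.423 and 0.233). In TPM the means ran the other way, at 2.81 in Ad-GFP and 3.06 in Ad-hHIF2 for Ifi27 and at 2.54 and 3.02 for Bst2. The TPM were not scaled by TMM and leaned upwards in Ad-hHIF2 over all genes. On log2(TPM + 1), 814 genes were higher and 196 lower by limma, against 2381 and 2035 by edgeR. The reversal is therefore not particular to these 2 genes. Oasl2, a relative of the oligoadenylate synthetases, had a log2 fold change of -0.59 ± 0.39, and the cell death factor Xaf1 and Ifi35 had -0.25 ± 0.19 and 0.01 ± 0.13. Ifi44 had 10, 1 and 2 counts in Ad-hHIF2 and was not tested against Ad-GFP.

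Among the GTPases, Gbp7 was at 0.355, 0.415 and 0.35 CPM in Ad-GFP, 0.731, 0.902 and 0.517 in Ad-hHIF2 and 0.523, 1.44 and 0.767 in Ad-hHIF1. Guanylate-binding proteins such as Gbp7 coat intracellular pathogens. Both HIF groups were above Ad-GFP without overlap, on 7 to 15 counts in the Ad-GFP libraries, and the log2 fold change of Ad-hHIF2 over Ad-GFP was 0.95 ± 0.42 (edgeR adjusted p = 0.121). Gbp2 had -0.03 ± 0.49 and Mx2 -0.87 ± 0.54 on the same scale, and Gbp3 and Mx1 were not tested. Mx2 is annotated as a polymorphic pseudogene in GENCODE M21. Trim25 was at 71.8, 68.0 and 53.7 CPM in Ad-GFP, 71.1, 69.2 and 65.1 in Ad-hHIF2 and 74.2, 72.5 and 76.3 in Ad-hHIF1. The Ad-GFP and Ad-hHIF2 values overlapped and the log2 fold change was 0.09 ± 0.11 (edgeR adjusted p = 0.566).

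B2m (chr2:122147686-122153083, plus strand) was at 79.9, 85.8 and 129 CPM in Ad-GFP. It was at 148, 109 and 135 CPM in Ad-hHIF2 and at 88.2, 113 and 88.8 CPM in Ad-hHIF1. Ad-GFP replicate 4 lay among the Ad-hHIF2 cultures and the other Ad-GFP cultures lay below them. The log2 fold change of Ad-hHIF2 over Ad-GFP was 0.42 ± 0.19 (edgeR adjusted p = 0.124), and without Ad-GFP replicate 4 it was 0.67 and passed (adjusted p = 0.00598). Tap1, a chain of the peptide transporter, had 0.43 ± 0.35 (edgeR adjusted p = 0.387), and the immunoproteasome genes Psmb8 and Psmb9 were not tested. Over the whole list, the Ad-hHIF2 cultures were all above the Ad-GFP cultures for 6 of the 36 genes (Ddx58, Parp14, Irf1, Ifih1, Gbp7 and Mx1) and all below for 4 (Usp18, Ifit1, Cxcl10 and Psmb8). Among the 24 tested members 5 lay above and 2 below, and among all genes tested 23.4% were separated upwards and 22.4% downwards.

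The comparison of Ad-hHIF1 with Ad-GFP asked the same of HIF1, and no gene of the group differed by the test. Of 29 members tested, 0 were higher and 0 were lower at either threshold by the edgeR quasi-likelihood test, and DESeq2 and limma on TPM called 0 as well. The share called was 0% of the 15233 genes tested in each direction, although 1308 of them had an unadjusted p below 0.05. At an adjusted p below 0.05, 144 passed with DESeq2, and 384 of 29714 passed by edgeR with no count filter. A single member, Gbp7, had an unadjusted p below 0.05, with a log2 fold change of 1.26 ± 0.55 (SE, edgeR adjusted p = 0.581). The median log2 fold change of the tested members was 0.07 and that of all genes was 0. Of the 29 tested members, 4 (Gbp7, Ifi44, Ifi27 and Trim25) had all Ad-hHIF1 cultures above all Ad-GFP cultures, and 0 had them below. Among all genes tested 8.36% were separated upwards and 9.04% downwards. Ddx58, Parp14, Irf1 and Usp18 had log2 fold changes of -0.04 ± 0.12, 0.07 ± 0.24, 0.17 ± 0.12 and -0.37 ± 0.45. Ifi44, an interferon-induced cytoplasmic protein, had 15, 9 and 0 counts in Ad-GFP and 23, 23 and 19 in Ad-hHIF1, with a log2 fold change of 1.59 ± 0.87 (edgeR adjusted p = 0.633). This fold change ran from 1.1 to 2.33 with each sample left out (edgeR adjusted p from 0.632 to 0.803). Precision depended on the level, with standard errors of 0.09 to 0.19 for the 7 genes above 10 CPM and of 0.51 to 1.02 for the 11 tested genes below 1 CPM, so that a change of 2-fold in the latter was not detectable at this depth.

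**Figure D3:**
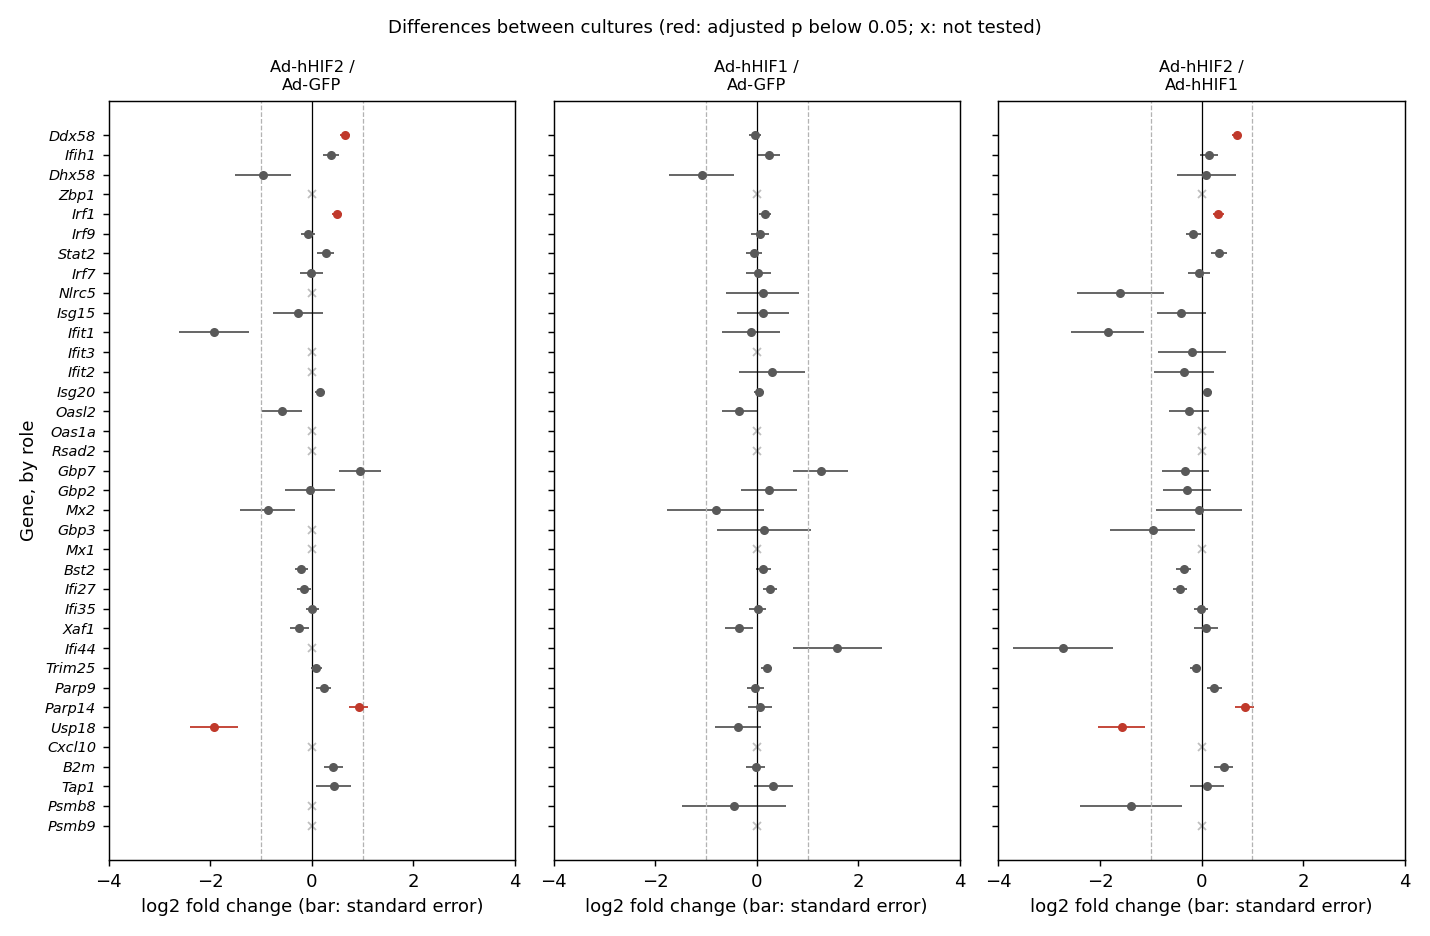
Log2 fold change (point) with its standard error (bar) for each of the 36 genes, by role, in the 3 comparisons, in red where the adjusted p is below 0.05, with crosses at 0 for genes not tested and dashed lines at 2-fold. Ddx58, Parp14 and Irf1 lie to the right and Usp18 to the left in both comparisons that use Ad-hHIF2, and the comparison of Ad-hHIF1 with Ad-GFP has no red point.

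The direct comparison of both transgenes used the same Ad-hHIF2 cultures, so its values are given beside the earlier ones and not as a repeat of them. The same 4 members passed, with 3 of 30 tested higher and 1 lower under Ad-hHIF2, and 13.7% and 12% of the 15556 genes tested were higher and lower at an adjusted p below 0.05. At both thresholds 0 members were higher and 1 was lower, and 2.42% and 3.7% of the genes tested were. Ddx58 was higher by a log2 fold change of 0.69 ± 0.09 (edgeR quasi-likelihood test, adjusted p = 0.000462) and Parp14 by 0.85 ± 0.18 (adjusted p = 0.00713). Irf1 was higher by 0.33 ± 0.11 (edgeR adjusted p = 0.0455). With a log2 fold change between 0.24 and 0.36, Irf1 no longer passed with median-ratio size factors (adjusted p = 0.0517), in a fit of the 6 HIF samples (0.0538) and without any of Ad-hHIF2 replicates 1 (0.0797), 3 (0.202) and 4 (0.0734) or Ad-hHIF1 replicates 1 (0.188) and 4 (0.0844). Usp18 was lower by -1.57 ± 0.46 (edgeR adjusted p = 0.0312), and this call was lost without Ad-hHIF2 replicate 1 (adjusted p = 0.115), Ad-hHIF2 replicate 3 (0.104) or Ad-hHIF1 replicate 4 (0.107). Of the 12 leukocyte markers, all Ad-hHIF2 cultures were below all Ad-hHIF1 cultures for 3 (Ptprc, Adgre1 and Siglech) and above for 1 (Csf1r). Among all genes tested 19.1% were separated downwards and 22.7% upwards. The part of these markers in the lower Usp18 level was not tested.

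Among the members that did not pass, Ifi27 had a log2 fold change of -0.42 ± 0.14 and all its Ad-hHIF2 cultures were below all Ad-hHIF1 cultures (edgeR adjusted p = 0.0501). Ifi44, with 10, 1 and 2 counts against 23, 23 and 19, had -2.73 ± 0.98 (edgeR adjusted p = 0.0664), and Ifit1 had -1.85 ± 0.71 (adjusted p = 0.0844). All 3 passed with DESeq2 (adjusted p = 0.0347 for Ifi27, 0.0183 for Ifi44 and 0.0369 for Ifit1). With each sample left out Ifit1 ran from -2.70 to -1.41 and did not pass (edgeR adjusted p from 0.0587 to 0.226). With each sample left out Ifi44 ran from -4.07 to -2.23 and did not pass (edgeR adjusted p from 0.0653 to 0.204). Over all alternatives run, the value of Ifi44 nearest to 0 was -0.05. Its means were 0.00667 TPM in Ad-hHIF2 and 0.0433 in Ad-hHIF1. At such levels adding 1 on the TPM scale leaves almost no difference, so -0.05 cannot be set beside the edgeR values. Bst2 had -0.35 ± 0.15 (edgeR adjusted p = 0.109), which became -0.51 and passed without Ad-hHIF1 replicate 1 (adjusted p = 0.0275), and B2m was higher by 0.44 ± 0.19 (adjusted p = 0.114). The median log2 fold change of the 30 tested members was -0.14 and that of all genes tested was -0.01, with 11 members above 0 and 19 below. The Ad-hHIF2 cultures lay above all Ad-hHIF1 cultures for 4 of these 30 and below them for 7, and among all genes tested 22.7% were separated upwards and 19.1% downwards.

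The pathway around these genes was read from a second list of 114 symbols found in the tables, which covers ligands, receptors, kinases, adaptors, negative regulators, further interferon-induced genes and antigen presentation. Of 115 gene identifiers on it, 76 were tested between Ad-hHIF2 and Ad-GFP, and 18 were higher and 10 lower at an adjusted p below 0.05 (edgeR quasi-likelihood test), against 15.9% and 13.6% of all genes tested. At least 2-fold changes were seen in 4 that were higher and 5 that were lower, against 2.9% and 3.83%. Its median log2 fold change was 0.08. Between Ad-hHIF1 and Ad-GFP, 82 were tested and 0 passed with edgeR or DESeq2, with 4 at an unadjusted p below 0.05 against 8.59% of all genes tested. Between Ad-hHIF2 and Ad-hHIF1, 79 were tested, with 15 higher and 9 lower at an adjusted p below 0.05, against 13.7% and 12% of all genes tested.

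In CPM the 2 chains of the interferon gamma receptor moved in opposite directions. Ifngr1, the ligand-binding chain, was at 101, 100 and 95.9 CPM in Ad-GFP, 64.2, 59.3 and 59.8 in Ad-hHIF2 and 101, 93.7 and 106 in Ad-hHIF1. Ifngr2, the chain that brings JAK2, was at 36.7, 37.0 and 30.2 CPM in Ad-GFP, 56.9, 60.3 and 54.1 in Ad-hHIF2 and 34.9, 40.1 and 40.5 in Ad-hHIF1. The Ad-hHIF2 cultures lay below all others for Ifngr1 and above all others for Ifngr2. In TPM, which were not scaled by TMM, the Ifngr1 groups overlapped, at 5.97 to 6.94 in Ad-GFP and 4.3 to 8.41 in Ad-hHIF2. Ifngr2 did not overlap in TPM, at 1.22 to 1.55 in Ad-GFP and 2.49 to 4.55 in Ad-hHIF2. The log2 fold changes of Ad-hHIF2 over Ad-GFP were -0.69 ± 0.07 for Ifngr1 (edgeR adjusted p = 0.000174) and 0.72 ± 0.09 for Ifngr2 (adjusted p = 0.000646). Ifnar1 (0.37 ± 0.08, adjusted p = 0.00961) and Il10rb (0.33 ± 0.09, adjusted p = 0.0206) were also higher by edgeR, and Ifnar2 (0.18 ± 0.09) and Ifnlr1 (0.11 ± 0.11) did not pass. Ifnar1 had whole counts in 1 of the 9 samples and Ifnar2 and Il10rb in 2, so that their reads were partly shared.

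Among the signalling genes, Jak1, the kinase common to all interferon receptors, was at 72.1, 66.1 and 57.9 CPM in Ad-GFP, 145, 130 and 125 in Ad-hHIF2 and 72.5, 72.2 and 69.9 in Ad-hHIF1. Its log2 fold change of Ad-hHIF2 over Ad-GFP was 1.03 ± 0.10 (edgeR adjusted p = 0.000137), and without Ad-GFP replicate 4 or Ad-hHIF2 replicate 1 it was no longer called at both thresholds. Tyk2 (0.56 ± 0.13, adjusted p = 0.0111) and Stat3 (0.39 ± 0.08, adjusted p = 0.00534) were also higher by edgeR.

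**Figure D4:**
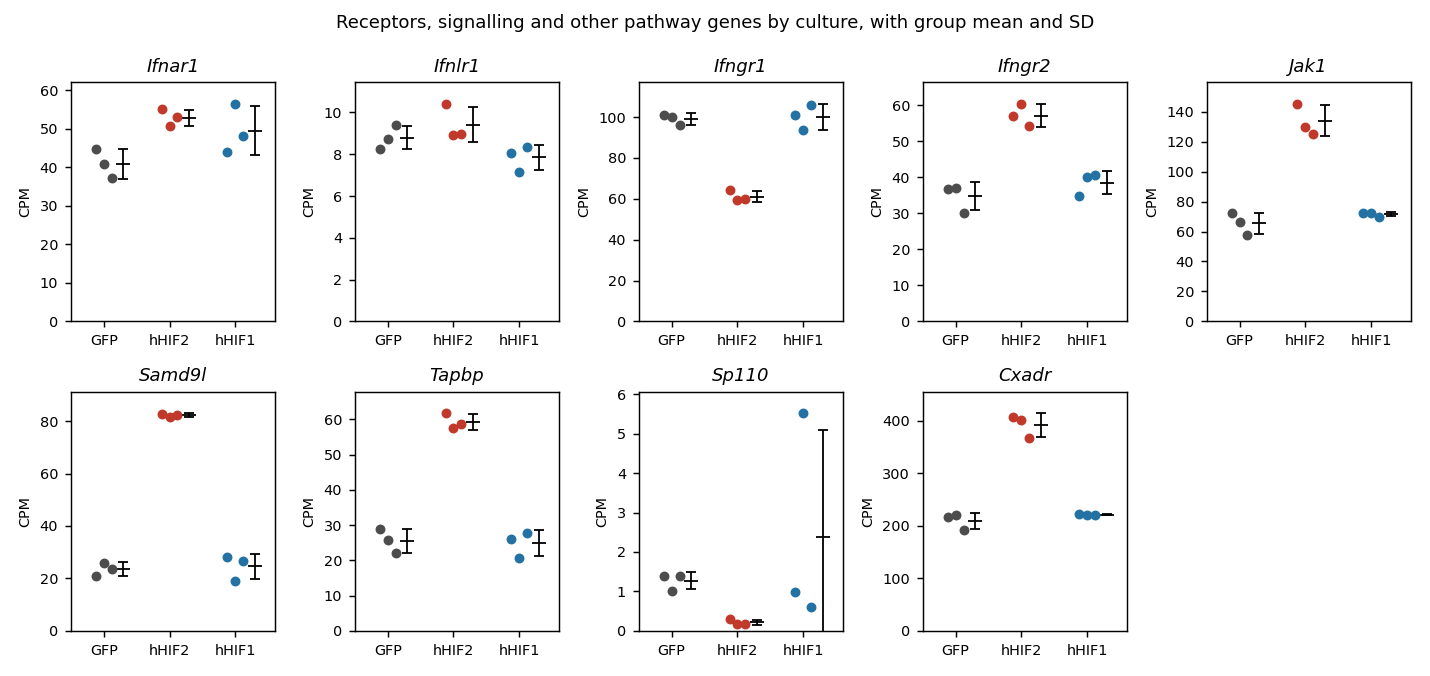
CPM of 8 pathway genes and the adenovirus receptor gene Cxadr in each culture (points) with the group mean and SD (3 cultures a group, linear axes from 0). Ifngr1 is lower and Ifngr2, Jak1, Samd9l, Tapbp and Cxadr are higher in the Ad-hHIF2 cultures than in all others, while Ifnlr1 overlaps between Ad-hHIF2 and Ad-GFP, and 1 Ad-hHIF1 culture stands apart for Sp110 at 5.51 CPM, where the lower end of the Ad-hHIF1 SD bar is cut off by the axis at 0.

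Samd9l, an interferon-induced restriction factor of poxviruses, had the largest increase of the pathway list in this comparison. It was at 21.0, 26.0 and 23.7 CPM in Ad-GFP, 82.7, 81.6 and 82.5 in Ad-hHIF2 and 28.1, 19.1 and 26.5 in Ad-hHIF1. The log2 fold change of Ad-hHIF2 over Ad-GFP was 1.81 ± 0.09 (edgeR adjusted p = 2.98e-06). Tapbp (tapasin), which loads peptides onto MHC class I, was at 28.8, 25.9 and 22 CPM in Ad-GFP, 61.7, 57.5 and 58.7 in Ad-hHIF2 and 26.2, 20.8 and 27.8 in Ad-hHIF1. Both genes were higher in every Ad-hHIF2 culture than in any other, and the log2 fold change of Tapbp over Ad-GFP was 1.21 ± 0.10 (edgeR adjusted p = 5.32e-05), with whole counts in 1 sample. Trim34a, a tripartite motif gene, was at 1.31, 1.05 and 0.949 CPM in Ad-GFP, 2.56, 2.2 and 2.91 in Ad-hHIF2 and 1.22, 1.14 and 1.61 in Ad-hHIF1 (1.20 ± 0.26 over Ad-GFP, edgeR adjusted p = 0.00973).

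The 5 pathway genes that fell by at least 2-fold were mostly low. Sp110, a nuclear body protein gene, was at 1.39, 1.02 and 1.40 CPM in Ad-GFP, 0.297, 0.176 and 0.162 in Ad-hHIF2 and 0.988, 5.51 and 0.613 in Ad-hHIF1, with a log2 fold change of -2.55 ± 0.42 between Ad-hHIF2 and Ad-GFP. Its relative Sp100 was at 0.382, 0.498 and 0.999 CPM in Ad-GFP, 0.0457, 0.196 and 0.162 in Ad-hHIF2 and 0.407, 0.394 and 0.0767 in Ad-hHIF1 (-2.14 ± 0.65). Oas3, the synthetase for long RNA, was at 1.23, 0.886 and 1.35 CPM in Ad-GFP, 0.571, 0.255 and 0.259 in Ad-hHIF2 and 1.16, 0.656 and 1.07 in Ad-hHIF1 (-1.65 ± 0.45). Sp100 and Oas3 had whole counts in 0 of the 9 samples and Sp110 in 1, so that these values depend on how reads were divided among matching genes or transcripts. Psmb10, the third immunoproteasome subunit, was at 5.63, 5.07 and 4.54 CPM in Ad-GFP, 3.04, 2.45 and 1.91 in Ad-hHIF2 and 4.62, 3.45 and 4.91 in Ad-hHIF1 (-1.04 ± 0.21), with whole counts in all samples. The MHC class II gene H2-Aa was at 0.655, 0.388 and 0.400 CPM in Ad-GFP, 0.206, 0.118 and 0.162 in Ad-hHIF2 and 0.320, 0.175 and 0.153 in Ad-hHIF1 (-1.57 ± 0.51). In CPM the Ad-hHIF2 cultures lay below the Ad-GFP cultures for all 5 genes, and for Sp100 and H2-Aa they overlapped with Ad-hHIF1. In TPM, which were not scaled by TMM, the Psmb10 groups overlapped, at 0.47 to 0.6 in Ad-GFP and 0.23 to 0.66 in Ad-hHIF2. None of the 5 was called with limma on either TPM scale, which compress the differences of genes with low TPM. The Sp110 call against Ad-GFP was kept with any 1 sample left out, whereas Sp100 and H2-Aa lost theirs each time. At both thresholds Psmb10 was no longer called without Ad-GFP replicate 1 or Ad-hHIF2 replicate 4, and Oas3 without Ad-GFP replicates 1 or 4 or Ad-hHIF2 replicates 3 or 4. The lower values of 5 of the 12 leukocyte markers in Ad-hHIF2 (22.4% of all genes tested were separated downwards) ran beside these levels, and their part in them was not tested. Against Ad-hHIF1, Samd9l (1.74 ± 0.13) and Tapbp (1.25 ± 0.12) were at least 2-fold higher in Ad-hHIF2, and Oas3 (-1.41 ± 0.46), Rtp4 (-1.28 ± 0.34) and Sp110 (-3.43 ± 0.80) were at least 2-fold lower. Rtp4, a chaperone of membrane receptors, was at 2.08, 1.72 and 1.15 CPM in Ad-GFP, 1.14, 1.02 and 0.711 in Ad-hHIF2 and 1.72, 3.02 and 2.33 in Ad-hHIF1. Here Oas3 was called only with Ad-hHIF2 replicates 3 and 4 and Ad-hHIF1 replicates 1 and 4 all present, and Rtp4 only with Ad-hHIF2 replicates 3 and 4 and Ad-hHIF1 replicate 3. The value of Sp110 against Ad-hHIF1 rests on Ad-hHIF1 replicate 3 at 5.51 CPM beside others at 0.613 and 0.988, and Sp110 also passed without that culture.

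**Figure D5:**
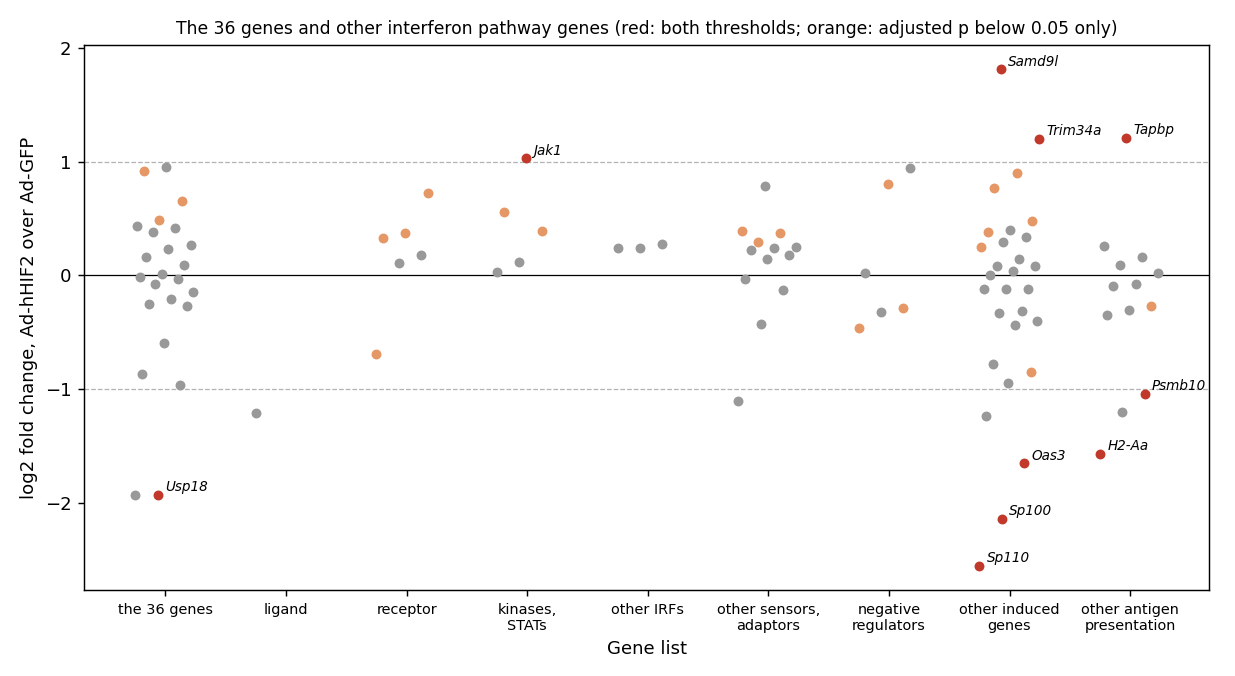
Log2 fold change of Ad-hHIF2 over Ad-GFP for the tested genes among the 36 and in each class of the pathway list (1 point per gene), in red where both thresholds were passed, in orange where the adjusted p alone was below 0.05, with dashed lines at 2-fold. Points of the 36 genes lie on both sides of 0, with Usp18 at -1.93 the only red one, and the kinases and STATs lie above 0.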

How the data were processed

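RNA sequencing of 9 duodenal organoid cultures (3 per virus) was used. Low-quality reads were discarded by the authors, who then estimated abundance with RSEM; the RSEM version, aligner, genome build, annotation and strandedness are not given in the sources used here. The expected counts, deposited by the authors without normalization, need not be whole because RSEM divides reads between matching transcripts (85.7% were whole within 0.005). The deposited TPM values, given to 2 decimals, are RSEM's length-scaled abundances. The FPKM values the authors deposited beside them were not used.

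Expected counts were rounded, filtered with filterByExpr, scaled by TMM and compared by the quasi-likelihood test of edgeR (version 4.0.16 under R 4.3.3), with Benjamini-Hochberg adjustment over all genes tested. Calls required an adjusted p below 0.05 together with a 2-fold change, and counts at the adjusted p alone are also given. Comparisons of a HIF with Ad-GFP used those 6 samples, and the comparison of both HIFs used all 9. Standard errors came from the F statistic. CPM used TMM factors over 9 samples. The authors' EBSeq was not run. With 3 cultures a group an exact permutation test cannot go below p = 0.10, so model tests were used. Scripts were tested on simulated counts with large changes and the same spread for every gene, which does not measure the power for smaller changes.

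Libraries held 21722618 to 51119041 expected counts. Gene positions came from GENCODE M21 (GRCm38) by identifier for all 36 genes, and promoter windows from RefSeq (GRCm38.p6), where the last 20 bases of 30 of 33 windows were found in a transcript of the gene on the same strand. Alternatives were no count filter, median-ratio size factors, DESeq2 (1.42.0), limma (3.58.1) on log2(TPM + 1) and log2(TPM + 0.1), other samples in the fit, a replicate block, each sample left out in turn and the adjusted p alone.

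Named with values per sample are members with an adjusted p below 0.05 in any comparison, the 3 with the highest mean TPM and the one with the highest mean CPM in each role class; of the pathway list, genes called at both thresholds and the receptors, beside 1 gene set by name that is not reported here. Values of other genes, such as Ifit1, Ifi44, Tyk2 and Stat3, were added after they were seen. The members and lists were chosen with earlier results of these data known.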

Additional observations from a re-analysis of the deposited data

How the results depend on the processing

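The log2 fold changes of the 4 members with an adjusted p below 0.05 kept their direction under all alternatives run, but none of the 4 passed on either TPM scale. Adding 1 or 0.1 compresses the differences of genes with low TPM. Mean TPM in Ad-GFP and Ad-hHIF2 was 0.43 and 0.65 for Ddx58, 0.04 and 0.1 for Parp14 and 0.113 and 0.0533 for Usp18. On log2(TPM + 1) the 2-fold threshold was out of reach for Parp14 and Usp18. Differences there cannot be set beside edgeR fold changes by size. On log2(TPM + 1) and log2(TPM + 0.1) the adjusted p of limma for Ad-hHIF2 against Ad-GFP was 0.442 and 0.379 for Ddx58 (differences of 0.2 and 0.51), 0.201 and 0.167 for Irf1 (0.49 and 0.8), 0.0879 and 0.0927 for Parp14 (0.08 and 0.49) and 0.13 and 0.148 for Usp18 (-0.08 and -0.46). Over all genes these scales gave 814 higher and 196 lower, and 899 higher and 210 lower, against 2381 and 2035 by edgeR. Against Ad-hHIF1 they gave 315 and 52, and 381 and 79, against 2137 and 1871, and the 4 members had an adjusted p of 0.161 to 0.259. Members lower in Ad-hHIF2 than Ad-GFP numbered 2 with no count filter (Ifit1 and Usp18), 2 with DESeq2 (Ifit1 and Usp18), 0 with limma on log2(TPM + 1) and 0 with limma on log2(TPM + 0.1). With each sample left out they numbered 0 to 2, and members higher numbered 0 to 1. Members higher in Ad-hHIF2 than Ad-GFP numbered 3 at the adjusted p alone. Pathway genes lower in Ad-hHIF2 than Ad-GFP numbered 0 on both TPM scales, 3 with all 9 samples in a single fit and 10 at the adjusted p alone, where 18 were higher, and 1 to 5 with each sample left out. The lowest count, 1, was without Ad-hHIF2 replicate 4, and it was 2 without Ad-GFP replicate 1, Ad-GFP replicate 4 or Ad-hHIF2 replicate 3. Against Ad-hHIF1, members lower in Ad-hHIF2 numbered 2 with no count filter (Ifi44 and Usp18), 3 with DESeq2, 0 on both TPM scales, 2 in a fit of the 6 HIF samples and 0 to 1 with each sample left out, and members higher numbered 3 at the adjusted p alone. Pathway genes lower numbered 5 with no count filter, 6 with DESeq2, 0 on both TPM scales, 9 at the adjusted p alone and 1 to 4 with each sample left out, the lowest without Ad-hHIF2 replicate 3. Pathway genes higher numbered 4 with limma on log2(TPM + 0.1), 15 at the adjusted p alone and 2 to 4 with each sample left out, the highest without Ad-hHIF1 replicate 4. The cause of these changes was not tested. B2m passed against both groups with no count filter (adjusted p = 0.000108 against Ad-GFP and 0.00015 against Ad-hHIF1). The labels number replicates 1, 3 and 4 in each group, but same-numbered samples did not deviate together throughout (r from -0.194 to 0.134 over the 3 comparisons), so the numbers were not taken as pairs. Between Ad-hHIF2 and Ad-GFP every sample correlated best with its own number, as a hint from the data only, and in the other comparisons this was not so. With the replicate number as a block, Usp18 remained the 1 member called lower against Ad-GFP and 0 were higher, pathway genes lower numbered 4, and among members tested the block changed the side of the threshold for 1 value (Ifi27 against Ad-hHIF1, adjusted p = 0.0311). Depth limits the 18 genes below 1 CPM most, since 12 members had at most 3 counts in some library.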
